A study of Mus musculus with 6 samples.

Results

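The 68 histone genes described here were all protein-coding genes of the deposited table whose symbol starts with Hist1h, Hist2h, Hist3h, Hist4h, H2af or H3f3, or equals H1f0 or H1fx, out of 26014 genes in all. By symbol, 58 are replication-dependent genes (6 of H1, 13 of H2A, 16 of H2B, 10 of H3 and 13 of H4) and 10 are variants (H1f0, H1fx, H2afz, H2afv, H2afx, H2afy, H2afy2, H2afj, H3f3a and H3f3b). Symbols are spelled as in the table. RNA came from mouse fetal livers at embryonic day 14.5, with 3 libraries of a Gata1 3′UTR knockout (KO) and 3 libraries of wild-type embryos (WT). All 6 are labelled as untreated embryonic hepatocytes from fetal liver, and the stated aim was to see which genes are regulated differently as fetal red cells form. The labels give no strain, no sort and no size of the deletion, and do not say whether each library is a separate embryo, so the p-values below reflect the spread among these samples, part or all of which may be technical. Levels are FPKM (fragments per length of exon and per size of the library), as the authors deposited them.

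Histones are the proteins around which DNA is wound. H2A, H2B, H3 and H4 form the core of the nucleosome, and H1 binds the linker DNA outside it. Replication-dependent genes lie in clusters and are transcribed mainly while DNA is copied, and their messenger RNA ends in a stem-loop bound by SLBP in place of a poly(A) tail. Variants are single genes, most with polyadenylated messenger RNA, and their proteins can be placed into chromatin outside of replication. Some replication-dependent genes also make longer, polyadenylated transcripts, above all in cells that stop dividing and differentiate.

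The stem-loop that ends a replication-dependent messenger RNA could be read from the annotated transcripts of the GRCm38 genome (GENCODE M21). The search took 16 bases on the transcript strand with the letters GGNNNTTTNNANNNCC and arms of 6 bases that pair without a mismatch, around a loop of 4 bases. It found the element in 40 of the 58 replication-dependent genes and in 1 of the 10 variants, H2afx, against 80 of 55450 annotated genes (0.144%). The examples below show the stem-loop in capitals with 5 bases on each side, and were chosen for the genes that the results turn on.
Hist1h4f: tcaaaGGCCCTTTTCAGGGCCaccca
Hist1h4d: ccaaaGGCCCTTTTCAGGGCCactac
Hist2h4: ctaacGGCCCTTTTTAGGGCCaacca
Hist1h4i: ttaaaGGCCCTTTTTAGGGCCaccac
Hist1h4j: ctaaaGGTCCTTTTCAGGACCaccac
Hist1h3f: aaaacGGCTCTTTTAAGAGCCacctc
Hist1h1c: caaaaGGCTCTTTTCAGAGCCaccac
Hist3h2ba: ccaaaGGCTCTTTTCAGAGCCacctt
H2afx: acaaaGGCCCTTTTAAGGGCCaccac

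In GRCm38 these stem-loops lie at chr13:23551291-23551306 on the minus strand for Hist1h4f, chr13:23581950-23581965 on the plus strand for Hist1h4d, chr3:96262939-96262954 on the minus strand for Hist2h4, chr13:22040966-22040981 on the minus strand for Hist1h4i and chr13:21735437-21735452 on the plus strand for Hist1h4j. Those of Hist1h3f (chr13:23544932-23544947), Hist1h1c (chr13:23739512-23739527), Hist3h2ba (chr11:58949349-58949364) and H2afx (chr9:44335240-44335255) are all on the plus strand. All are in the 3′ UTR, and over the 41 genes the element began 21 to 54 bases after the stop codon, with a median of 31. The genes carried 7 distinct stem-loops, which followed the class of the histone. All 11 H4 genes with a match had an arm of GGCCCT (9 genes) or GGTCCT (2 genes), whereas every replication-dependent H1, H2A, H2B and H3 gene with a match had GGCTCT (4, 8, 10 and 7 genes). H2afx, an H2A variant, had the GGCCCT arm. No match says only that the letters are not in the annotated transcript, and several of those models stop near the stop codon: they end at it for Hist1h1b, Hist1h4k and Hist1h3h, and 48 bases after it for Hist1h1a. Annotated transcripts went on for 840 bases past the stem-loop of Hist1h1c, 822 bases past that of H2afx and 330 bases past that of Hist1h4i, but also for 770 bases in Hist1h4d and 1257 bases in Hist2h4, and for 33 bases in Hist1h4f. The deposited position of Hist1h4d ends 25 bases after its stem-loop, so the rest of its 770 bases lies outside that position.

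Sequence shared between the genes limits how far single genes can be told apart. At least 1 exact stretch of 150 bases, the read length, occurred also in a transcript of another gene for 46 of the 58 replication-dependent genes and for 7 of the 10 variants, and in 17 of the 68 genes such stretches made up 50% or more. Hist1h4m, Hist1h3h and most low H2A genes are among these 17, and how the authors assigned reads of more than 1 origin is not stated in the labels, so values of such genes are uncertain. Hist1h4d, Hist2h4, Hist1h2bm, Hist1h1c, Hist3h2ba, Hist2h2be and H2afx shared no such stretch. The octamer ATTTGCAT, searched on both strands of the RefSeq promoters of GRCm38.p6 (250 bases before to 50 after the start), was in 474 of 27025 promoters (1.75%). Of the histone genes with a promoter in that table it was in 6 of 13 H2A and 4 of 14 H2B replication-dependent genes, in 0 of 6 H1, 0 of 8 H3 and 0 of 12 H4 genes, and among the variants in H3f3b. The pair Hist1h2bg and Hist1h2ae, which are transcribed away from each other, hold 1 octamer in common. It is shown in capitals on the strand of Hist1h2bg, with 8 bases on each side; the whole printed stretch lies at chr13:23571333-23571356.
Hist1h2bg: agtcccttATTTGCATagaacctc

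The libraries held 14826836 to 16215508 fragments, as recovered from the steps of the low FPKM values, so that 1 fragment of a gene with 1000 bases of exon was worth less than 0.1 FPKM. Gata1, the targeted transcription factor of red cells and megakaryocytes, had 67.2, 67.7 and 68.2 FPKM in KO livers (replicates 1 to 3), against 142.9, 141.8 and 165.8 FPKM in WT livers. No KO library reached a WT library (log2 fold change -1.13, SE 0.069, limma adjusted p = 0.000638). FPKM may count the 3′ UTR too, and the part of the deletion itself in this value was not tested. Summed markers of red cells were at 59957 to 63905 FPKM in KO livers and 76813 to 87726 FPKM in WT livers, while those of hepatocytes, the labelled cell type, were at 1056 to 1445 FPKM in KO livers and 406.7 to 2403 FPKM in WT livers. Megakaryocyte markers summed to 346.0 to 622.6 FPKM in KO livers and 142.1 to 268.0 FPKM in WT livers. WT replicate 1 (WT-1) stood apart from the other 5 libraries in many replication-dependent histone RNAs and in some other RNAs without a poly(A) tail, such as Rn7sk and Rpph1, so results that rest on it are given with and without it.

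Most of the summed histone FPKM lay in a few genes. The labels do not state whether poly(A) RNA was selected. How far FPKM reflects the level of histone RNAs without a poly(A) tail was not tested. The 10 variants summed to 1024, 990.5 and 1061 FPKM in KO livers, against 994.9, 978.5 and 1034 FPKM in WT livers. The 58 replication-dependent genes summed to 514.6, 464.7 and 495.0 FPKM in KO livers, against 815.7, 435.1 and 483.4 FPKM in WT livers. In the replication-dependent sum WT-1 was the highest library by far, and in the variant sum it lay within the range of the others. Of the replication-dependent total, 77.2% to 80.2% lay in 4 genes in the libraries other than WT-1, and 46.5% in WT-1. These 4 were the linker histone gene Hist1h1c, the H2B genes Hist1h2bc and Hist1h2bg, and the H4 gene Hist1h4i, each with at least 20 FPKM on average outside WT-1. Hist1h2bc had 98.0, 75.0 and 73.1 FPKM in KO livers, against 97.1, 79.8 and 80.9 FPKM in WT livers. Hist1h2bg had 50.4, 40.8 and 66.5 FPKM in KO livers, against 54.3, 45.0 and 41.5 FPKM in WT livers. KO and WT overlapped in both H2B genes, and 1 KO library was the highest in each.

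Below these 4 the levels dropped steeply. The next H1 genes, Hist1h1d and Hist1h1b, averaged 3.88 ± 0.278 and 3.43 ± 0.794 FPKM in KO livers and 3.82 ± 1.36 and 4.22 ± 1.22 FPKM in WT livers (SD, n = 3 each). The highest H2A gene, Hist3h2a, averaged 3.26 ± 0.472 FPKM in KO livers and 2.12 ± 0.438 FPKM in WT livers (SD, n = 3 each), and Hist1h2ac and Hist1h2ae stayed at or below 2.02 FPKM in every library. At the other end 17 of the 58 had a mean under 1 FPKM over the 6 libraries, among them 10 of the 13 H2A genes, of which Hist1h2ao was at 0 in all 3 KO libraries and at 0.128 FPKM in 1 WT library.

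By FPKM, variants were the highest histone genes. H2afz, one of the 2 genes of H2A.Z, a variant placed near promoters, had 392, 388 and 405 FPKM in KO livers, against 364, 369.9 and 398 FPKM in WT livers. H3f3b, which encodes the replacement histone H3.3, had 301, 278 and 324 FPKM in KO livers, against 263, 278 and 277 FPKM in WT livers. H3f3a, which encodes the same protein, was lower, at 90.9, 90.5 and 96.2 FPKM in KO livers and 95.5, 91.4 and 109.9 FPKM in WT livers. KO and WT overlapped in all 3 genes, and WT-1 was the lowest library for the 2 highest ones.

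H2afx encodes the variant that is phosphorylated beside DNA breaks, and its messenger RNA exists in a stem-loop and a polyadenylated form. It had 125, 119 and 129 FPKM in KO livers, against 145, 119.9 and 143 FPKM in WT livers. WT-1 was the highest library, but only 1.14 times the mean of the other 5. H1f0, the linker variant of cells that leave the cycle, had 43.0, 40.7 and 37.5 FPKM in KO livers, against 47.0, 50.3 and 37.4 FPKM in WT livers. H2afy, which encodes macroH2A1, a variant with a large extra domain, had 33.8, 33.6 and 32.3 FPKM in KO livers, against 34.5, 29.8 and 26.2 FPKM in WT livers. H2afv, the other gene of H2A.Z, had 25.8, 28.9 and 25.3 FPKM in KO livers and 32.5, 27.2 and 30.6 FPKM in WT livers. The groups overlapped for each of these genes. H2afj stayed between 10.6 and 11.7 FPKM in the 6 libraries, and H1fx and H2afy2 did not pass 1.07 FPKM in any.

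WT-1 held more replication-dependent histone RNA than the other libraries, and the excess lay mainly in H4, H3 and H2B genes. This library was singled out with these data in view, so the values are a description without a test. Summed H4 genes were at 120, 118 and 120.0 FPKM in KO livers, against 326, 118 and 149.8 FPKM in WT livers. Summed H3 genes were at 21.5, 22.7 and 23.0 FPKM in KO livers, against 78.6, 15.7 and 23.1 FPKM in WT livers. Summed H2B genes were at 183, 149.6 and 179 FPKM in KO livers, against 254, 162 and 164 FPKM in WT livers. In each of the 3 classes WT-1 lay above every other library, at 2.60, 3.71 and 1.51 times their mean for H4, H3 and H2B. The ratio was 1.25 for the low H2A genes and 0.944 for H1, and 0.978 for the variants. The H1 sum of WT-1 (149 FPKM) lay mostly in Hist1h1c (130.5 FPKM), with a ratio of 0.883. The low H1 genes Hist1h1d, Hist1h1b, Hist1h1e and Hist1h1a had ratios of 1.51, 1.63, 3.01 and 2.06. Of the difference in replication-dependent FPKM between WT-1 and the mean of the other 5 libraries (337.1 FPKM), 59.5% was in H4, 25.5% in H2B and 17.0% in H3 genes.

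**Figure D1:**
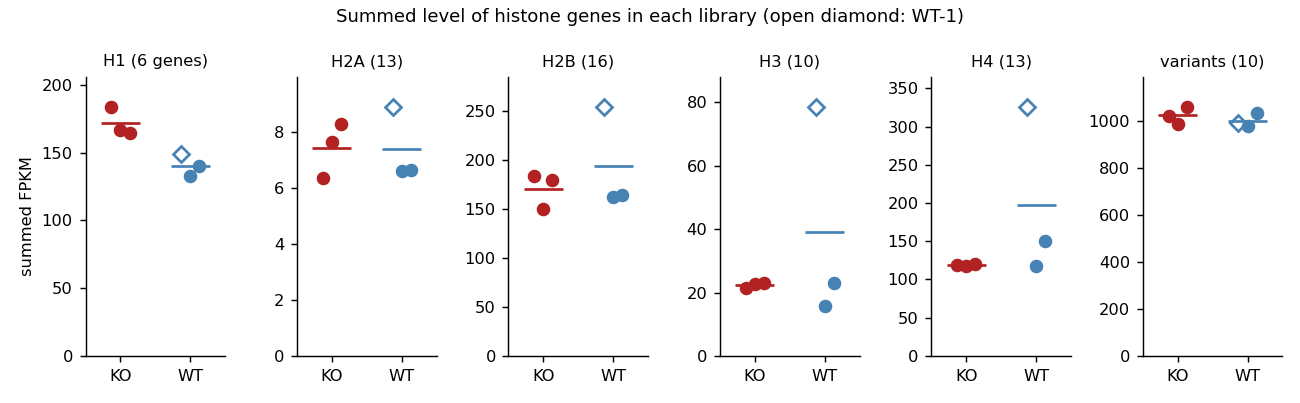
Summed FPKM of replication-dependent genes of 5 histone classes and of the 10 variants in each library, with KO left of WT, bars at the group means and WT-1 as an open diamond; each axis starts at 0. WT-1 is the highest library for H2A, H2B, H3 and H4, whereas the sums of H1 are 165 to 184 FPKM in KO livers and 133 to 149 FPKM in WT livers.

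Gene by gene, WT-1 was the highest of the 6 libraries for 39 of the 58 replication-dependent genes (67.2%), compared with 13.9% of all 26014 genes. The 39 include Hist1h1t, Hist2h2ac, Hist1h2af and Hist1h2ak, where WT-1 had 1 to 3 fragments and another library as many. On the scale of FPKM + 1, WT-1 was at least 2-fold above the mean of the other 5 for 25 of 58 (43.1%), compared with 0.254% of all genes. These 25 were 10 of 13 H4, 7 of 10 H3, 7 of 16 H2B and 1 of 6 H1 genes, and no H2A gene and no variant was among them. A stem-loop had been found in 19 of the 25, beside 40 of all 58 replication-dependent genes.

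Among H4 genes, Hist1h4f had 0.475, 0.976 and 0.491 FPKM in KO livers, against 31.0, 0.473 and 0.321 FPKM in WT livers. This amounts to 3, 6 and 3 fragments in KO livers and to 180, 3 and 2 fragments in WT livers. Hist1h4d, which shares no 150-base stretch with another gene, had 18, 23 and 20 fragments in KO livers, against 187, 30 and 18 fragments in WT livers. Hist2h4, which lies on chromosome 3 outside the large cluster of chromosome 13 and also shares no stretch, had 10, 18 and 16 fragments in KO livers and 110, 7 and 11 fragments in WT livers. In all 3 genes WT-1 had at least 110 fragments and no other library had more than 30, whether KO or WT. Hist1h4k, the second H4 gene by level, had 61, 45 and 67 fragments in KO livers, against 278, 65 and 53 fragments in WT livers, although sequence shared with other genes makes its value uncertain.

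H3 and H2B genes were high in WT-1 as well. Hist1h3c, the highest H3 gene, had 4.68, 5.85 and 6.80 FPKM in KO livers, against 22.2, 4.16 and 7.31 FPKM in WT livers. Hist1h3f had 2, 5 and 8 fragments in KO livers and 64, 2 and 6 fragments in WT livers. Hist1h2bm, an H2B gene without shared stretches, had 2.11, 1.17 and 3.53 FPKM in KO livers, against 10.3, 2.59 and 3.13 FPKM in WT livers. WT-1 was again the one high library in each. Of the 12 replication-dependent genes that share no stretch, WT-1 was the highest library for 9 and at least 2-fold above the others for 3 (Hist1h4d, Hist2h4 and Hist1h2bm). The 9 include Hist1h1t, Hist2h2ac and Hist1h2ak, with 1, 1 and 3 fragments in WT-1 and as many in another library.

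The 4 highest replication-dependent genes showed no ratio of that size. Together they had 413, 361 and 382 FPKM in KO livers, against 379.6, 340.4 and 375 FPKM in WT livers, so WT-1 was at 1.01 times the mean of the other 5 and was the highest library for none of the 4. Singly, the ratios were 0.883 for Hist1h1c, 1.19 for Hist1h2bc, 1.11 for Hist1h2bg and 1.01 for Hist1h4i. In FPKM, WT-1 differed from the mean of the other 5 by -17.2, 15.8, 5.46 and 1.19 in the same order. The difference for Hist1h3c was 16.4 FPKM. The other 54 genes summed to 102, 103 and 113 FPKM in KO livers, against 436, 94.7 and 108 FPKM in WT livers, a ratio of 4.19 for WT-1. Hist1h4i, with the stem-loop that Hist2h4 also carries, had 90.6, 88.9 and 89.2 FPKM in KO livers, against 97.7, 91.5 and 122 FPKM in WT livers, and WT-1 lay between the other WT libraries. The spread between H4 genes within 1 library is thus wide: in WT-1 Hist1h4f reached 31.0 FPKM, close to the 32.1 FPKM of Hist1h4d, while both were under 5 FPKM elsewhere and Hist1h4i stayed near its usual level.

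**Figure D2:**
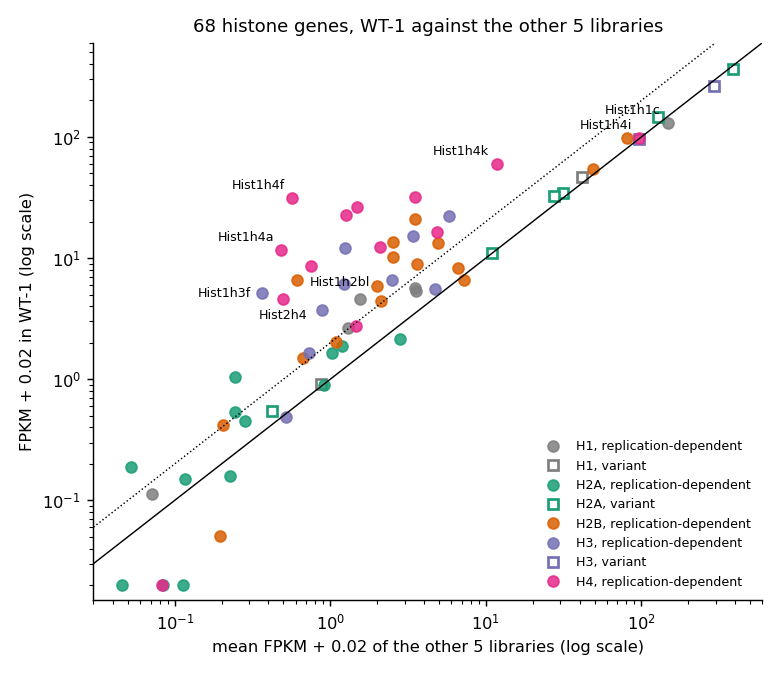
Each of the 68 histone genes by its mean FPKM in the 5 libraries other than WT-1 (horizontal axis) and its FPKM in WT-1 (vertical axis), both plus 0.02 on log scales; filled circles are replication-dependent genes, open squares variants, the solid line marks equality and the dotted line a ratio of 2. Variants and the 4 high replication-dependent genes lie along the line of equality, and low H4, H3 and H2B genes mostly lie above it.

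Some other RNAs that lack a poly(A) tail were high in WT-1 as well, while the snoRNA and snRNA classes were not. Of 7 listed RNAs of this kind in the table, 2 (28.6%), Rn7sk and Rpph1, were at least 2-fold above the mean of the other 5 libraries on the scale of FPKM + 1. The 7 summed to 33.0, 21.05 and 29.9 FPKM in KO livers, against 427.7, 29.4 and 25.7 FPKM in WT livers. Most of this was Rn7sk, the RNA that holds a regulator of RNA polymerase II inactive, with 0.748, 1.73 and 3.09 FPKM in KO livers and 250.6, 0.745 and 1.89 FPKM in WT livers. Rpph1, the RNA of ribonuclease P, had 2.14, 3.19 and 4.21 FPKM in KO livers and 154, 4.06 and 4.52 FPKM in WT livers. WT-1 stood far above the other 5 libraries for both, whereas Rnu73b and Vaultrc5 of the same list were not highest in it. The summed rRNA class was at 90.2 to 185 FPKM in KO livers, against 606 FPKM in WT-1 and 98.8 and 124 FPKM in the other WT libraries. Small nucleolar RNAs summed to 783 to 905 FPKM in KO livers and to 759 FPKM in WT-1, within the 743 to 798 FPKM of all WT livers, and the snRNA class was lowest in WT-1, at 138 FPKM.

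S phase genes showed no such contrast. The 20 listed S phase genes summed to 1549, 1697 and 1746 FPKM in KO livers, against 1629, 1809 and 1981 FPKM in WT livers, and WT-1 was the lowest WT library. The labels name total RNA and do not state whether poly(A) RNA was selected or rRNA removed, and the part of library preparation in the histone values was not tested.

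**Figure D3:**
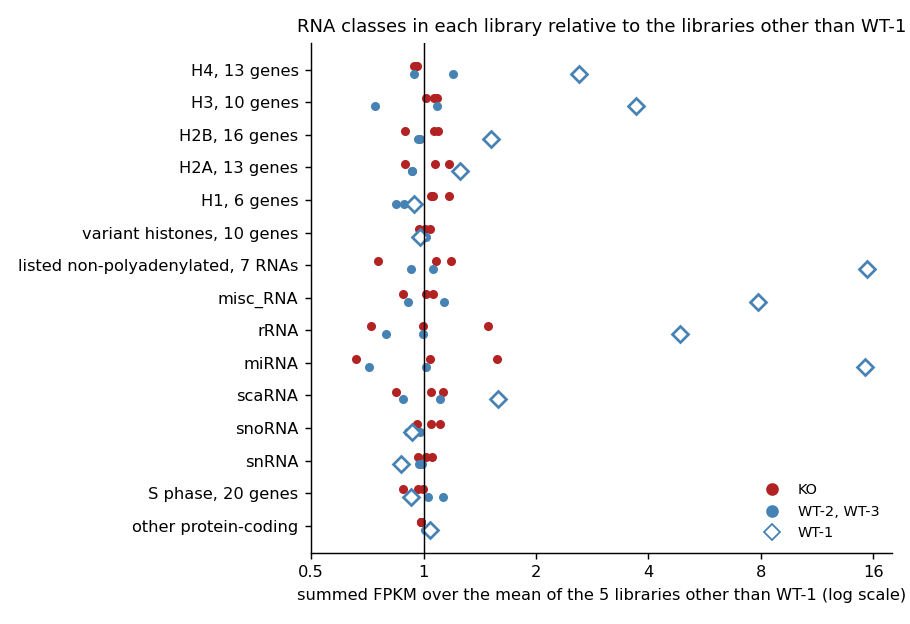
Summed FPKM of RNA groups in each library, divided by the mean of the 5 libraries other than WT-1 (log scale); KO libraries are red, WT-2 and WT-3 blue and WT-1 an open diamond, KO above WT within each group. WT-1 lies at 2.60 for H4, 3.71 for H3, 7.87 for misc_RNA, 4.87 for rRNA and 15.4 for the listed non-polyadenylated RNAs. It lies at 0.927 for S phase genes. In WT-1 the misc_RNA sum exceeds the mean of the other 5 libraries by 250.2 FPKM, about the level of Rn7sk there. Rn7sk also makes up most of the listed RNAs in WT-1, and 1 gene, Gm23935, most of the miRNA group.

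The log2 ratio of summed replication-dependent to summed variant FPKM gives the same contrast in 1 number per library. It was -0.99, -1.09 and -1.10 in KO livers, against -0.29, -1.17 and -1.10 in WT livers. WT-1 lay 0.80 above the mean of the other 5, whose SD was 0.063. The mean of KO minus the mean of WT was -0.21, less than the SD of 0.49 among WT libraries, and without WT-1 it was 0.07. Without genes that share 150-base stretches, 7 of the 10 variants among them, it was 0.23, the opposite direction. Leaving out H2afx did not move these differences beyond the spread of the libraries. When all genes with shared 150-base stretches were left out, the ratio in WT-1 differed by 0.041 from the mean of the other 5. Of the 12 replication-dependent genes that then remain, Hist1h1c, which was not high in WT-1, is by far the highest. Among them Hist1h4d, Hist2h4 and Hist1h2bm still stood out. Of the variants only H2afx, H2afv and H2afj then remain, with H2afx by far the highest. Both sums thus rest on other genes than in the main ratio, and the values are not the same contrast.

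The comparison of KO with WT asked which histone genes changed with the Gata1 3′UTR deletion. Few did: among replication-dependent genes Hist1h1c rose and Hist3h2ba fell, and no variant passed the test. Of 11142 tested genes, those with a mean of at least 1 FPKM, 661 rose (5.93%) and 403 fell (3.62%) in KO livers (limma on log2(FPKM + 1), Benjamini-Hochberg adjusted p under 0.05). This split depended on the scaling, with 219 up and 450 down under median-of-ratios, 340 and 428 under protein-coding scaling and 777 and 134 under TPM. Of the 58 replication-dependent genes, 41 were tested and 17 were too low. The test called 1 higher and 1 lower, 4.88% of the 41 against 9.55% of all tested genes, and 4 of the 41 had an unadjusted p under 0.05. KO and WT libraries did not overlap for 6 of the 41, 2 higher (Hist1h1c and Hist3h2a) and 4 lower (Hist3h2ba, Hist2h2be, Hist1h2bl and Hist1h4i), compared with 35.6% of all tested genes. Of the 41 genes, 7 passed the filter through WT-1 alone, Hist1h2bl among them, which leaves 34 with a mean of at least 1 FPKM in the other 5 libraries. In bulk RNA a lower value can come from fewer cells of a type or from less RNA per cell, and these cannot be told apart.

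Hist1h1c, which encodes a linker histone that compacts chromatin, had 174, 157 and 153 FPKM in KO livers, against 130.5, 124 and 130.3 FPKM in WT livers. All KO libraries lay above all WT libraries, with means of 161 ± 10.9 FPKM in KO livers and 128 ± 3.62 FPKM in WT livers (SD, n = 3 each). This gave a log2 fold change of 0.33 (SE 0.061, limma, adjusted p = 0.0257). Without WT-1 it was 0.34 (limma, adjusted p = 0.0495), and 3 of the 6 fits with 1 library left out kept the call. It was lost with median-of-ratios and protein-coding scaling (log2 fold changes 0.21 and 0.28, limma, adjusted p = 0.185 and 0.0509), so its direction held while the call did not.

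Hist3h2ba, an H2B gene of a small cluster on chromosome 11, had 5.24, 4.76 and 4.17 FPKM in KO livers, against 8.24, 7.53 and 11.1 FPKM in WT livers. That is 52, 46 and 40 fragments in KO livers and 75, 75 and 109 fragments in WT livers, with no overlap of the groups. This gave a log2 fold change of -0.79 (SE 0.143, limma, adjusted p = 0.0235), and of -0.83 without WT-1 (limma, adjusted p = 0.0479). The 3 fits that left out a WT library kept the call and the 3 that left out a KO library lost it.

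Hist3h2a, the H2A gene next to it in the same cluster, had values in the other direction that did not pass the test, and 28.04% of its stretches are shared. It had 3.20, 2.81 and 3.76 FPKM in KO livers, against 2.14, 1.67 and 2.54 FPKM in WT livers (log2 fold change 0.45, SE 0.134, limma, adjusted p = 0.0784). Every KO library lay above every WT library, as the fragment counts of 111, 95 and 126 in KO livers and 68, 58 and 87 in WT livers also show. Hist2h2be, an H2B gene on chromosome 3 with a long annotated 3′ end, had 6.50, 6.21 and 6.08 FPKM in KO livers and 6.54, 8.43 and 8.83 FPKM in WT livers. Its log2 fold change was -0.29 (limma, adjusted p = 0.132) and, without WT-1, -0.41 (limma, adjusted p = 0.0300). Summed red cell markers were lower and summed megakaryocyte markers higher in KO than in WT livers, as given above, and their part in the values of these 4 genes was not tested.

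**Figure D4:**
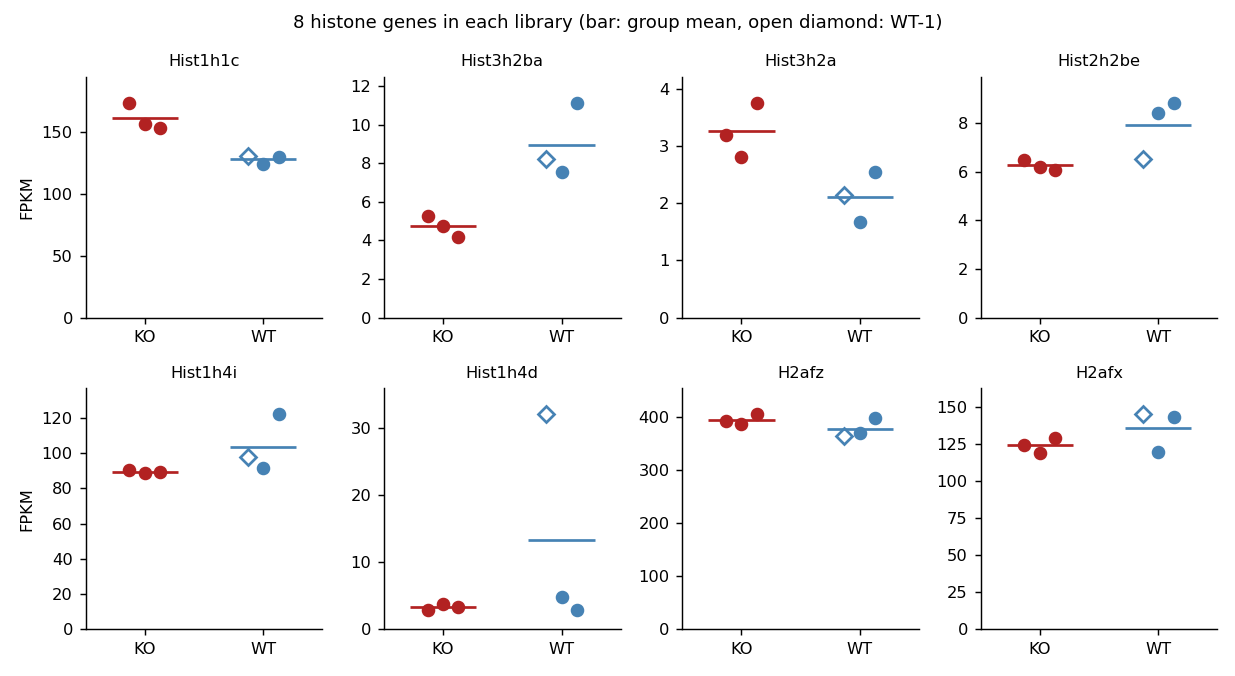
FPKM of 8 histone genes in each library, KO left of WT, with bars at the group means, WT-1 as an open diamond and each axis from 0. Hist1h1c and Hist3h2a lie higher and Hist3h2ba and Hist2h2be lower in all KO libraries. For Hist2h2be the margin is narrow, with KO-1 at 6.50 and WT-1 at 6.54 FPKM. Hist1h4d is high in WT-1 alone at 32.1 FPKM, and the groups overlap for H2afz and H2afx.

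The sign of the log2 fold changes of replication-dependent genes depended on WT-1. The 7 genes that passed the filter through WT-1 alone were all negative and are left out of these counts. The filter took them for their high value in WT-1, which favours a negative sign. Of the other 34, 29 had a negative log2 fold change with all libraries, with a median of -0.28, against 28.6% negative and a median of 0.09 over all tested genes. Without WT-1, 12 of the same 34 were negative (35.3% of them, beside 32.3% of all tested genes) and 22 positive, with a median of 0.17 against 0.09 over all tested genes. Of the 8 H4 genes among the 34, all were negative with all libraries and 4 without WT-1. The 5 largest negative values belonged to Hist1h4f (-1.28), Hist1h4a (-1.19), Hist1h4d (-1.08), Hist1h2bl (-1.03) and Hist1h4c (-0.92), with adjusted p from 0.253 to 0.550 (limma), and WT-1 was the high library for each. Hist1h4f, Hist1h4a and Hist1h2bl are among the 7 genes tested through WT-1 alone, which favoured a negative sign. Outside WT-1 each had 6 fragments or fewer per library. There KO averaged 0.647 FPKM against 0.397 FPKM in WT for Hist1h4f. For Hist1h4a it was 0.391 against 0.576 FPKM, and for Hist1h2bl 0.443 against 0.816 FPKM. The 5 largest positive values among all tested histone genes were smaller, with Hist3h2a at 0.45, Hist1h1c at 0.33 and H2afy, Hist1h2bg and H3f3b at 0.14 each. Hist1h3i, an H3 gene, had a log2 fold change of -0.11 with all libraries and of 0.65 without WT-1, where it passed the test (limma, adjusted p = 0.0471). Its values were 4.52, 4.33 and 3.58 FPKM in KO livers, against 15.1, 1.95 and 2.59 FPKM in WT livers, and 52.7% of its stretches are shared with other genes. Without WT-1 the test called 2 replication-dependent genes higher (Hist1h1c and Hist1h3i) and 2 lower (Hist3h2ba and Hist2h2be), beside 3.93% and 2.91% of all tested genes (6.84% in both directions).

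**Figure D5:**
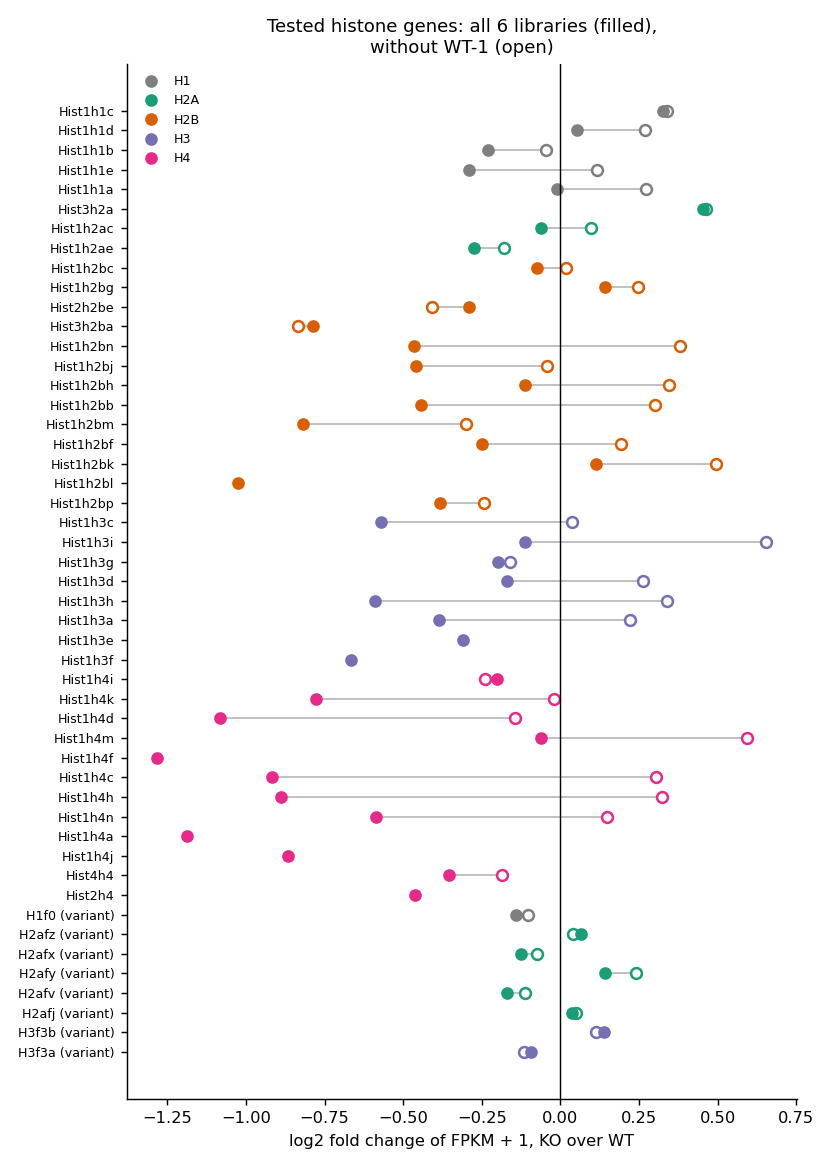
Log2 fold change of FPKM + 1, KO over WT, of the 49 tested histone genes, ordered by class and level with variants at the bottom; filled circles use all 6 libraries and open circles leave out WT-1 (absent where the gene was then below the filter). Filled circles of H4, H3 and H2B genes lie mostly left of 0, down to -1.28, and the open circles lie on both sides, while variants stay within -0.17 and 0.24 in both.

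Variants differed little between the genotypes. Of the 10, 8 were tested and 0 passed (limma), with 0 at an unadjusted p under 0.05 and 0 also by voom on recovered fragments. Their log2 fold changes ran from -0.17 for H2afv (SE 0.083, limma, adjusted p = 0.228) to 0.14 for H2afy (SE 0.096, limma, adjusted p = 0.361). H2afz had 0.07, H3f3b 0.14, H3f3a -0.09, H2afx -0.12, H1f0 -0.14 and H2afj 0.04 on the same scale. Under median-of-ratios scaling 2 of the 8 were positive and under TPM scaling 5, against 4 as deposited, so the signs of these small values depend on the scaling. H2afy had all KO libraries above the other WT libraries once WT-1 was left out (log2 fold change 0.24, limma, adjusted p = 0.0936).

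Some of the genes that make and handle histone messenger RNA passed the test. Of 30 listed genes for transcription, processing and decay of this messenger RNA, 29 were tested, of which 4 rose and 1 fell, 17.2% against 9.55% of all tested genes. Ccne1, the cyclin that with CDK2 drives entry into S phase and histone gene transcription, had 34.3, 38.8 and 38.0 FPKM in KO livers, against 51.6, 58.5 and 67.4 FPKM in WT livers (log2 fold change -0.65, SE 0.102, limma, adjusted p = 0.0148). No KO library reached the lowest WT library, and 4 of 6 fits with 1 library left out kept the call. The 4 genes that rose had KO means of 117.1% to 125.8% of their WT means. Zcchc11 and Tut1, terminal uridylyltransferases, had log2 fold changes of 0.29 and 0.25, Cpsf1, a subunit of the cleavage complex, 0.22, and Upf1, a helicase in histone messenger RNA decay, 0.29. The adjusted p of these 4 ran from 0.0336 to 0.0482 (limma), and all 4 lost the call under median-of-ratios scaling. Of the 6 fits with 1 library left out, Zcchc11 and Tut1 kept the call in 1 each, and Cpsf1 and Upf1 in 0.

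Slbp, whose protein binds the stem-loops printed above, had 33.9, 36.3 and 38.5 FPKM in KO livers, against 36.0, 46.5 and 49.2 FPKM in WT livers. WT-1 lay among the KO libraries, below both other WT libraries. The log2 fold change was -0.26 (limma, adjusted p = 0.204) with all libraries and -0.39 without WT-1 (limma, adjusted p = 0.0374). Npat, the coactivator of histone gene clusters, had 6.73, 6.48 and 7.29 FPKM in KO livers, against 5.93, 7.42 and 7.51 FPKM in WT livers, and the groups overlapped.

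Of 38 listed histone chaperones and exchange factors, 37 were tested, of which 3 rose and 2 fell, 13.5% against 9.55% of all tested genes. Nap1l4, a chaperone of H2A and H2B, had 73.8, 75.3 and 76.3 FPKM in KO livers, against 56.8, 59.7 and 57.7 FPKM in WT livers (log2 fold change 0.37, SE 0.045, limma, adjusted p = 0.00787). The groups were far apart and 5 of 6 fits with 1 library left out kept the call. Rbbp7, a histone-binding subunit of several chromatin complexes, and Parp1, which binds DNA breaks, had 0.25 and 0.29 (limma, adjusted p = 0.0266 and 0.0361). All 3 lost the call under median-of-ratios scaling, and Rbbp7 kept it in 2 and Parp1 in 1 of the 6 fits with 1 library left out. The falls were in Cabin1, a subunit of the HIRA complex for H3.3, with -0.44, and Oip5, which helps to load the centromeric H3, with -0.37 (limma, adjusted p = 0.0208 for both). With 1 library left out, Cabin1 kept the call in 1 and Oip5 in 2 of 6 fits. Chaf1a, Chaf1b and Hira, which encode subunits of the chaperones for replicative H3 and for H3.3, had log2 fold changes of 0.02, -0.17 and 0.07 and did not pass, nor did Nasp at 0.10. Daxx, another chaperone of H3.3, had 17.6, 19.0 and 19.5 FPKM in KO livers, against 16.1, 15.5 and 15.7 FPKM in WT livers, with no overlap (limma, adjusted p = 0.0509). None of the 20 S phase genes passed, and 1 of them had an unadjusted p under 0.05.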

How the data were processed

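The 6 libraries were read as paired ends of 150 bases from TRIzol total RNA, per the labels' protocols. The authors deposited FPKM per gene, and the aligner, counting program, use of strand, RNA selection and genome build are not given in the sources at hand. Positions of 23607 of the 26014 genes equal those of GENCODE M21, so coordinates are GRCm38. Of 26022 lines, 8 without a gene were left out. In each library the lowest FPKM values are multiples of what a single fragment adds. With exon lengths from the annotation or the table, 98.5% to 98.6% of values up to 200 fragments came out whole within 0.02, which gave fragments per gene. They cover counting error only.

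KO was compared with WT by limma 3.58.1 in R 4.3.3 (lmFit, eBayes with a trend) on log2(FPKM + 1), two-sided, for genes whose mean FPKM was 1 or more, with Benjamini-Hochberg adjustment over all tested genes. This scale understates changes of low genes, and the prior had 2.86 degrees of freedom beside 4 residual ones. An exact permutation test of 1 gene cannot go below p = 0.1 with 3 against 3. Alternatives were another pseudocount or filter, 3 scalings, library weights, a replicate block, voom on fragments and each library left out. Named were all variants, the 3 highest genes of each class, called genes, the 5 largest changes each way, and fixed genes of the 2 lists. Other names were chosen after their values were seen. Members and lists were chosen with earlier results of these data known. Python 3.11.15, pandas 2.3.3, numpy 2.4.6 and matplotlib 3.10.9 were used.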

Additional observations from a re-analysis of the deposited data

How the results depend on the processing

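Over the tested histone genes and the named list genes, 874 comparisons with an alternative left the call as it was, 83 lost and 7 gained a call and 1 gained it with the opposite sign, Hist1h3i, at -0.57 to 0.65 with 1 library left out, 0.65 without WT-1. Genes higher in KO numbered 661, and 267 with no filter, 219 with median-of-ratios, 340 with protein-coding scaling and 62 to 736 with 1 library left out. Genes lower in KO numbered 403, and 246 with no filter, 134 with TPM and 111 to 395 with 1 library left out. Median-of-ratios moved the median log2 fold change of all genes by -0.10 and TPM by 0.10. Relative to it, 37 of 41 replication-dependent genes were lower under each, as in the deposited values, 7 of which were tested through WT-1 alone. A scaling moves all genes nearly alike, so this count could hardly change and adds no support. Without WT-1, 14 of 34 lay below the median of all tested genes.

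Replication-dependent genes called higher numbered 0 with no filter, median-of-ratios or protein-coding scaling, 2 with TPM, and 0 to 2 with 1 library left out. Those called lower numbered 0 with no filter and 0 to 3 with 1 library left out. Variants called numbered 0 in both directions under every alternative. Of the 66 tested processing and chaperone genes 7 were higher, and 2 with no filter, 0 with median-of-ratios, 3 with TPM, 1 with protein-coding scaling and 0 to 8 with 1 library left out. Of these genes 3 were lower, and 0 with TPM and 0 to 3 with 1 library left out. The causes were not tested.

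For WT-1 against the other 5, the difference in log2 ratio was 1.37 from means of log2 values, 1.57 without the highest gene of each class, 0.041 without genes with shared stretches and 0.78 to 0.83 with 1 other library left out. For KO minus WT it was 0.23 without genes with shared stretches and -0.37 to 0.07 with 1 library left out. Leaving out genes with shared stretches also took out 7 of the 10 variants, so both sums then rest on other genes.

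Correlations of deviations between WT and KO libraries of the same replicate number were -0.10, 0.01 and 0.26. For pairs of unlike number they ran from -0.19 to 0.18. With so few libraries these values cannot tell whether replicate numbers pair the libraries. With the replicate number as a block, 2 replication-dependent genes were higher (Hist3h2a in addition), and 2 processing and chaperone genes were higher.

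Genes with under 10 fragments a library carry a wide counting error.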
